A study of Mus musculus with 12 samples.

Results

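The effect of the liver knockout of Nr5a2 was estimated over both diets at once, from all 12 libraries of the series. The 5 libraries titled knockout were compared with the 7 titled control in 1 additive model, with diet as a block, across all 12015 genes that passed the filter on low counts, of 24062 listed. Nr5a2 encodes LRH-1, a nuclear receptor. The mice were male, of the mixed 129SvEV-C57BL/6 background and 14 weeks of age, and all carried floxed Nr5a2 alleles (F/F in the labels of the controls). The groups were standard diet (SD) controls (n = 3), SD knockouts given AAV8-Cre (n = 3), controls on 6 weeks of the high-fat diet (HFD) D12492 (n = 4) and HFD knockouts given AAV8-Cre (n = 2). AAV8 is a virus vector with a strong preference for hepatocytes. According to the series, controls received AAV8 carrying eGFP. The sources used here name neither the promoter that drives Cre nor the exons that it removes. The labels number the libraries but do not say that each came from its own mouse, and the p-values then reflect only the spread of these libraries, which may be technical.

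LRH-1 binds DNA as a monomer, at a nuclear receptor half-site, and phospholipids occupy its ligand pocket. In liver it is known for its part in bile acid synthesis, reverse cholesterol transport and the make-up of membrane phospholipids. The corepressor SHP, encoded by Nr0b2, and the sterol 12-hydroxylase Cyp8b1 are among its textbook targets. The samples are labelled liver, and in such bulk RNA fewer cells of a type and less RNA per cell cannot be told apart.

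Depth ranged from 2371167 to 3404570 counts per library on SD and from 7463792 to 10875478 on HFD, so HFD values have the smaller counting error. The share of Rn45s, ribosomal RNA, was at most 0.460% in any SD library and at least 0.985% in any HFD library, and diet cannot be told apart from whatever else set the depth. The nuclear RNA Malat1 took 0.461% to 0.689% in SD controls and 0.677% to 1.07% in SD knockouts, while on HFD controls had 1.13% to 1.37% and knockouts 1.58% to 1.79%. The ranges overlap on SD and not on HFD, and the part of this share in the comparisons below was not tested. Hepatocyte markers summed to 103114 to 171716 CPM (counts scaled to a common library size) over all libraries, which is what liver labels call for. The globin genes of erythrocytes and 8 of 11 pancreatic acinar markers had no count in any library. After the mean of each diet was removed, the first principal component (30.3% of the variance) placed SD controls between -21.3 and -16.2 and SD knockouts at 20.7 or above. HFD knockouts lay at 20.3 and 16.4, and HFD controls 2 to 4 lay between -19.7 and -13.3. HFD control 1 stood apart at 0.212, between the genotypes, so results of some genes are also given without it. For a gene in which this library lies on the side of the knockouts, leaving it out enlarges the effect.

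**Figure D1:**
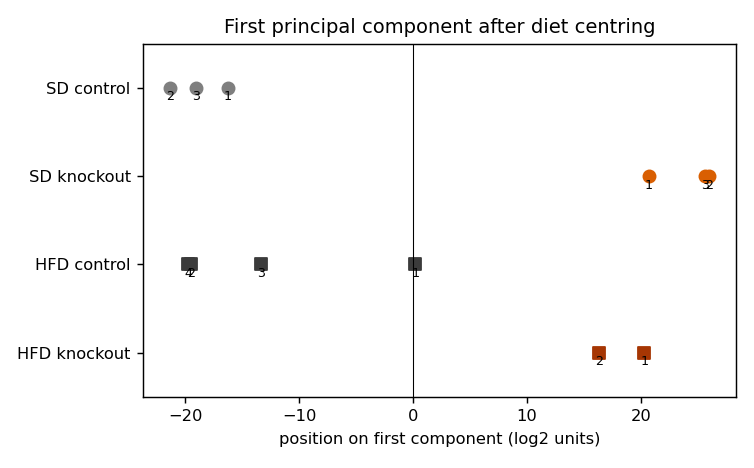
Position of each library on the first principal component (x axis, log2 units) after the mean of each diet was subtracted, by group (y axis), with numbers for replicates. Knockouts lie at 16.4 or above and controls at -13.3 or below, except HFD control 1 at 0.212.

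The targeted gene came first as a check of the labels. Nr5a2 stood at 84.4, 74.8 and 85.8 CPM in SD controls and 95.3, 100.1 and 94.7 CPM in SD libraries that carry the knockout label, and on HFD at 77.0, 74.5, 64.3 and 66.8 CPM in controls and 69.1 and 84.5 CPM in those that carry it. The labelled knockouts were above every control on SD and overlapped with the controls on HFD (log2 fold change 0.18, SE 0.08, edgeR adjusted p = 0.208). Counts summed over a whole gene also hold reads from any exons that were kept, so they may not show a deletion of some exons. Knockout below means the libraries so labelled, and each direction rests on that label.

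Over all genes, 959 differed between knockouts and controls at an adjusted p under 0.05, which is 7.98% of those tested. Of these, 347 (2.89%) were higher and 612 (5.09%) lower in knockouts, and 2496 (20.8%) had an unadjusted p under 0.05. At least 2-fold changes were 102 of the rises (0.849% of genes tested) and 136 of the falls (1.13%), and at least 4-fold changes 32 and 31. Many calls were small: 141 of the rises (40.6%) and 312 of the falls (51.0%) were under 1.5-fold. The median log2 fold change was 0.67 for rises and -0.58 for falls, against 0.0019 for all genes tested. Pooling both diets gave a median standard error (SE) of 0.153 over all genes tested, against 0.231 for the SD contrast and 0.197 for the HFD contrast. Without HFD control 1, 1152 genes passed in place of 959, of 11034 tested. Without SD knockout 2 the rises numbered 231 in place of 347, of 12558 tested. With diet left out of the model, 305 genes passed. HFD libraries alone gave 127 calls among 12372 genes tested and SD libraries alone 683 among 9412. In the fit of 4 group means, in which all libraries share 1 estimate of the spread, 526 genes (4.38%) passed within SD and 325 (2.70%) within HFD.

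The direction of the knockout effect was shared across the diets, whose contrasts have no library in common. Of the 200 genes with the smallest p on SD, 192 (96.0%) had the same sign on HFD, with a median size of 1.09 on SD and 0.69 on HFD. Of the 200 with the smallest p on HFD, 191 (95.5%) had the same sign on SD, with medians of 1.18 and 1.00. Among all genes tested 7322 (60.9%) had the same sign, and across genes, which are not independent replicates and share the estimate of the spread, the correlation was r = 0.39 (Spearman's rho 0.32). In 312 genes (2.60%) every knockout was above every control within each diet, and in 532 (4.43%) every knockout was below, 844 in all (7.02%). Over all 12 libraries, without regard to diet, 325 (2.70%) did not overlap. Separation in opposite directions was found for 85 genes (0.707%). Of the 959 calls, 214 rises (1.78% of genes tested) and 424 falls (3.53%) were separated within each diet.

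**Figure D2:**
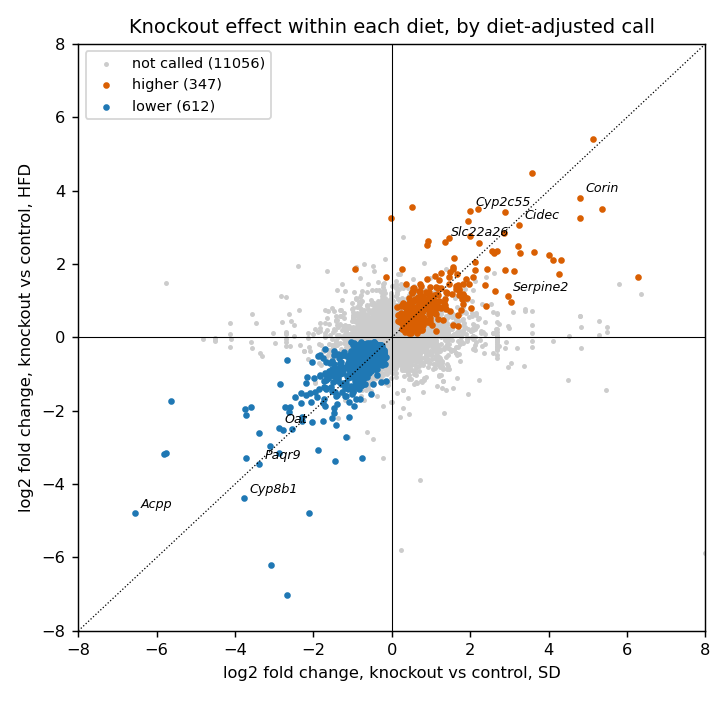
Log2 fold change of knockout against control on SD (x axis) and on HFD (y axis) for each gene tested, with diet-adjusted rises (347) and falls (612) coloured and the dotted line marking equal change. The coloured genes lie almost wholly in the quadrants of equal sign, which their choice by a common effect over both diets favours. Outside the plotted range of 8 log2 units lies 1 gene.

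No gene passed the edgeR test of the difference between the diets' knockout effects, while 911 (7.58%) had an unadjusted p under 0.05. DESeq2 gave 30 such genes among 5027 with an adjusted p, and the count without a filter on low counts was 17. The quality-weighted limma fit gave 0. Of the rises 3 (Col4a3, H2-Q1 and Lrtm2, chosen here for their signs) and of the falls 0 had opposite signs on the diets. The test of a common effect favours genes of equal sign, so these low numbers are largely set by that choice. Among all 12015 genes tested 4602 had opposite signs. Serpine2, which encodes the protease inhibitor nexin-1, stood at 12.5, 8.84 and 10.4 CPM in SD controls and 88.0, 77.7 and 80.8 CPM in SD knockouts. On HFD it stood at 19.1, 10.3, 9.04 and 10.1 CPM in controls and 22.6 and 30.8 CPM in knockouts. All 5 knockouts were above all 7 controls, with a log2 fold change of 2.96 on SD and 1.12 on HFD, a difference that did not pass (unadjusted p 0.000137, edgeR adjusted p = 0.291). The common estimate was 1.96 (SE 0.28, edgeR adjusted p = 0.000349), and 2.19 without HFD control 1. With any 1 library left out, it ranged from 1.80 to 2.27. Apoa4, an apolipoprotein of triglyceride-rich particles, separated in opposite directions. It stood at 26.2, 46.2 and 23.2 CPM in SD controls against 77.0, 76.9 and 106 CPM in SD knockouts, and at 248, 127, 188 and 149.7 CPM in HFD controls against 107 and 89.6 CPM in HFD knockouts. Its common estimate of 0.28 (SE 0.37, edgeR adjusted p = 0.748) lies between 1.46 on SD and -0.86 on HFD (unadjusted p of the difference 1.69e-05, edgeR adjusted p = 0.202).

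Most of the listed LRH-1 targets fell. Of 12 listed, 9 fell and 0 rose, with a median log2 fold change of -1.13, against falls in 5.09% of all genes tested and a median of 0.0019. This list, like the others here, was chosen with earlier results of these data known, so its share is a description and no test. Nr0b2 stood at 10.5, 15.3 and 12.8 CPM in SD controls and had no count in the 3 SD knockouts, which is at least 35.9-fold lower against the limit of 3 counts over a group. On HFD it stood at 6.26, 13.3, 12.4 and 7.54 CPM in controls and at 0 and 0.335 CPM in knockouts, 342 counts against 3 and a ratio of 51.9 (exact 95% interval 17.6 to 253, for counting error only). Every control held Nr0b2 counts, and 4 of the 5 knockouts held none (edgeR adjusted p = 1.68e-06). Cyp8b1, whose product sets the share of cholic acid in bile, stood at 47.6, 20.1 and 17.1 CPM in SD controls, 4.00, 1.20 and 0.697 CPM in SD knockouts, 62.4, 87.5, 102 and 95.4 CPM in HFD controls and 6.81 and 1.79 CPM in HFD knockouts. The highest knockout was below the lowest control although SD controls were all below HFD controls (log2 fold change -4.22, SE 0.38, edgeR adjusted p = 4.45e-06). Both subunits of the sterol exporter of the canalicular membrane fell, Abcg5 by 1.42 (SE 0.17, edgeR adjusted p = 9.78e-05) and Abcg8 by 1.27 (SE 0.13, edgeR adjusted p = 1.39e-05) on the log2 scale. Scarb1, the HDL receptor, fell from 62.9, 58.7 and 57.4 and 62.8, 62.2, 63.4 and 65.5 CPM in controls of the diets to 34.3, 30.0 and 32.0 and 36.4 and 35.4 CPM in knockouts (log2 fold change -0.85, SE 0.07, edgeR adjusted p = 2.71e-06). The kinase gene Plk3 fell too (log2 fold change -1.83, SE 0.32, edgeR adjusted p = 0.00177).

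Of the 3 members of the target list that did not pass, 2 are described. Cyp7a1, the rate-limiting enzyme of bile acid synthesis, ranged from 2445, 329 and 739.8 CPM in SD controls to 1507, 1435 and 1200.3 CPM in SD knockouts, 1070.4, 1136, 1636 and 1184 CPM in HFD controls and 1468 and 1399 CPM in HFD knockouts. The groups overlapped on both diets (log2 fold change 0.22, SE 0.32, edgeR adjusted p = 0.778). Apoa1, the main protein of HDL, had a log2 fold change of -0.12 (SE 0.14, edgeR adjusted p = 0.706).

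**Figure D3:**
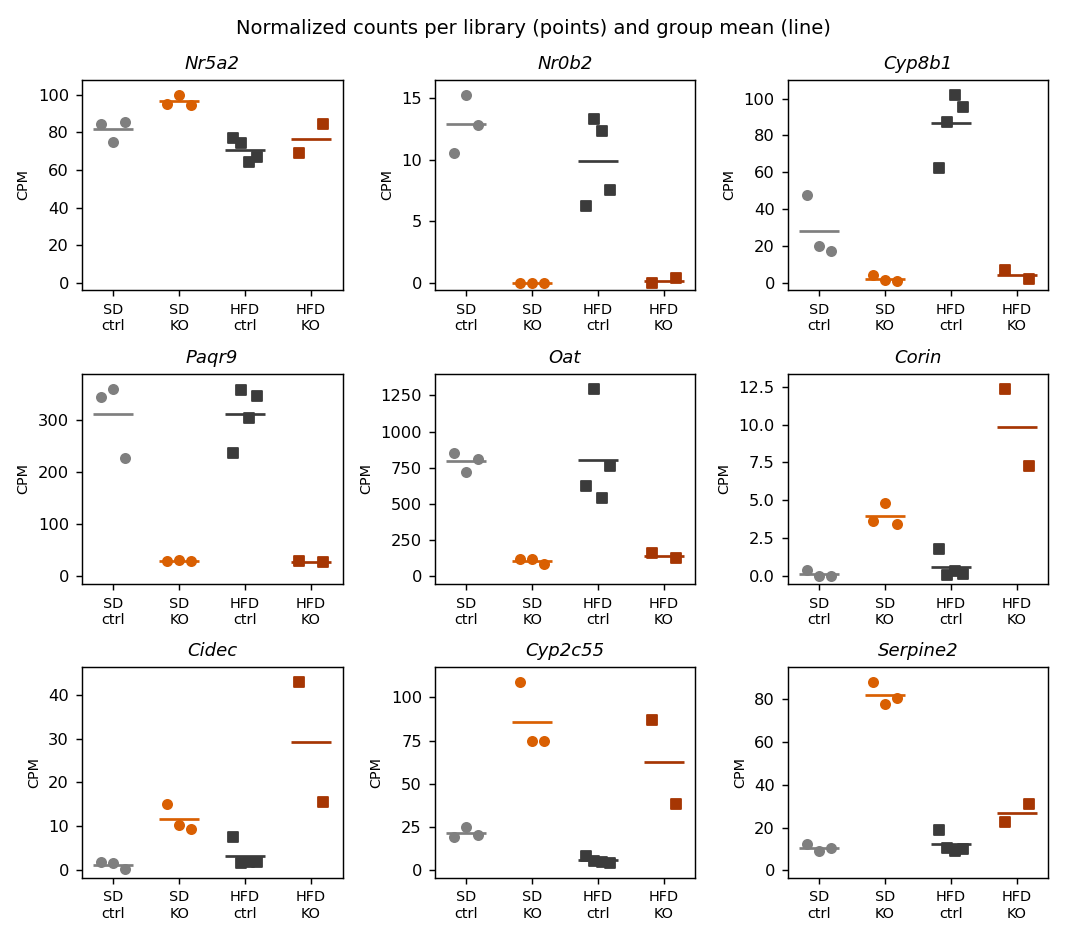
Normalized counts (y axis, CPM, linear) of 9 genes in each library (points) with the group mean (line), for SD controls (n = 3), SD knockouts (n = 3), HFD controls (n = 4) and HFD knockouts (n = 2). Nr5a2 is not lower in knockouts, Nr0b2, Cyp8b1, Paqr9 and Oat are lower in all 5, and Corin, Cidec, Cyp2c55 and Serpine2 are higher in all 5.

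Promoters of genes that fell were searched for the extended half-site of LRH-1, CAAGGTCA or CAAGGCCA on either strand (TGACCTTG or TGGCCTTG on the other), in RefSeq windows of 250 bases before to 50 after each gene start (build GRCm38.p6). The site was found in 41 of 677 windows of genes that fell (6.06%), 4 of 335 of genes that rose (1.19%) and 348 of 12235 windows of all genes tested (2.84%). RefSeq windows matched 80.7% of falls but 75.5% of rises and 79.8% of all genes tested, so a comparison of these shares is void and they describe only the windows found. A match is a description and shows no binding. Of 69 named genes that fell and had a window, 6 held the site. No window of the targets Cyp8b1, Abcb4, Abcb11, Abcg5 and Abcg8 held it. Cyp4f14 had a second match 96 bases before the start, not printed, and its other windows held none. Stretches from 5 genes that fell, chosen because they held a match, are printed to show the letters around it. The match is in capitals, 5′ to 3′ on the strand of the gene. The stretches are from Nr0b2 (chr4:133553155-133553202, plus strand, with the match 201 bases before the start), Apon (chr10:128253938-128253985, plus strand, 173 bases before), Cyp4f14 (chr17:32917215-32917262, minus strand, 155 bases before), C3 (chr17:57228283-57228330, minus strand, 174 bases before) and Nqo2 (chr13:33967017-33967064, plus strand, 116 bases before).
Nr0b2: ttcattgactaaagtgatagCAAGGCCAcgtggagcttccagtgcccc
Apon: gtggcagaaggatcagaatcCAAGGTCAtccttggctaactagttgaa
Cyp4f14: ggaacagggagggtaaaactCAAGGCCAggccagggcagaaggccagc
C3: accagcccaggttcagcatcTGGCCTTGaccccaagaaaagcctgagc
Nqo2: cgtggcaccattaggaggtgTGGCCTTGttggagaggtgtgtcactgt

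These genes fell by different amounts. Apon, an apolipoprotein-like plasma protein gene, had -1.79 (SE 0.14, edgeR adjusted p = 1.68e-06) on the log2 scale. Cyp4f14, a fatty acid and leukotriene hydroxylase, had -1.70 (SE 0.18, edgeR adjusted p = 1.86e-05). C3, the central complement protein, had -1.06 (SE 0.15, edgeR adjusted p = 0.000278) and Nqo2, a quinone reductase, -1.01 (SE 0.11, edgeR adjusted p = 3.93e-05). Each was lower in all 5 knockouts than in every control of the same diet.

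RNAs of several transporters of bile acids, phospholipids and sterols were lower in knockouts. Of 13 tested transporter genes 7 fell, 1 rose and 5 did not pass (median -0.61), 5 of the falls being members of the target list as well. Slc10a1, the sodium-dependent bile acid uptake carrier NTCP, stood at 812, 819.9 and 698 CPM in SD controls, 379, 352 and 353 CPM in SD knockouts, 435, 780.0, 923 and 794 CPM in HFD controls and 166 and 159 CPM in HFD knockouts. The groups did not overlap, and the fall was -1.10 on SD and -2.17 on HFD (common log2 fold change -1.59, SE 0.21, edgeR adjusted p = 0.000133). At the canalicular side Abcb4, the phosphatidylcholine floppase, fell (log2 fold change -0.98, SE 0.08, edgeR adjusted p = 1.68e-06). Abcb11, the bile salt export pump (-0.61, edgeR adjusted p = 0.000787), and Abcc2, the exporter of conjugates (-0.66, edgeR adjusted p = 0.000221), fell too. Abcc3, which exports conjugates to blood, fell by 2.05 on the log2 scale (SE 0.26, edgeR adjusted p = 0.000117). The rise was of Slco1a4, an organic anion uptake carrier (log2 fold change 1.16, SE 0.18, edgeR adjusted p = 0.000741). In the bile acid synthesis list 4 of 16 fell and 0 rose (median -0.16), and beside Cyp8b1 they included the reductases Akr1d1 (-0.58) and Akr1c6 (-0.96) and the dehydrogenase Hsd3b7 (-0.86). Among 20 nuclear receptors and corepressors 4 fell and 1 rose. Nr1h4, the bile acid receptor FXR (-0.48, -0.52 without HFD control 1), and Ppara, the fatty acid receptor (-0.43), fell slightly. With any 1 library left out, Nr1h4 ranged from -0.54 to -0.42. Pparg rose (log2 fold change 0.97, SE 0.20, edgeR adjusted p = 0.00517).

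Some genes of phospholipid synthesis, acyl chain remodeling and polyunsaturated chain formation fell. In the phosphatidylcholine and phosphatidylethanolamine synthesis list 4 of 16 fell and 0 rose (median -0.14). Pemt, which methylates phosphatidylethanolamine to phosphatidylcholine, stood at 84.4, 100.1 and 95.8 CPM in SD controls, 45.3, 42.0 and 44.9 CPM in SD knockouts, 102, 115, 114 and 123 CPM in HFD controls and 78.8 and 77.1 CPM in HFD knockouts. Its groups were apart within each diet (log2 fold change -0.80, SE 0.10, edgeR adjusted p = 0.000119). Pcyt1a, the rate-limiting enzyme of the choline route, fell by 0.58 on the log2 scale (edgeR adjusted p = 0.000124), and the ethanolamine kinase gene Etnk2 fell by 0.60 (edgeR adjusted p = 0.0019). Among 13 acyl chain remodeling genes 3 fell (6 without HFD knockout 1) and 0 rose (median -0.16). Lpgat1, an acyltransferase of lysophospholipids, was one of them (log2 fold change -0.88, SE 0.08, edgeR adjusted p = 6.19e-06). Lpcat3, which puts polyunsaturated chains into phosphatidylcholine, did not pass with all libraries (-0.18, edgeR adjusted p = 0.391), though this did not hold under every setting. Its log2 fold change ranged from -0.36 to -0.088 with 1 library left out, the lowest being without HFD knockout 1. Of the 10 desaturases and elongases of polyunsaturated fatty acids 5 fell and 0 rose (median -0.72), and 3 fell without any 1 of SD control 3, SD knockout 1, HFD knockout 1 or HFD knockout 2. Fads1 stood at 615, 562 and 710.5 CPM in SD controls, 261, 366 and 275 CPM in SD knockouts, 998, 1061, 1047 and 807 CPM in HFD controls and 644 and 399.9 CPM in HFD knockouts. Every knockout was below the controls of its diet (log2 fold change -0.99, SE 0.13, edgeR adjusted p = 0.000143), and Fads2, the desaturase of the first step, did likewise (log2 fold change -1.23, SE 0.16, edgeR adjusted p = 0.000122). Elovl5 had -1.77 (SE 0.31, edgeR adjusted p = 0.00173), with the wide spread of 1109, 588, 386 and 292 CPM among HFD controls. Elovl6 and Fasn, counted in the lipogenesis list too, passed (-0.90 and -0.99) and lost the call without any 1 of 9 and of 8 libraries, respectively.

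Some genes of the methyl group supply, on which Pemt draws, fell too. Of 15 methionine cycle and betaine genes 5 fell and 0 rose (median -0.18). Gnmt, the glycine N-methyltransferase that uses up S-adenosylmethionine, stood at 292, 317 and 305 CPM in SD controls, 138, 127 and 114 CPM in SD knockouts, 234, 393, 384 and 349.5 CPM in HFD controls and 115 and 129 CPM in HFD knockouts. Groups were far apart on both diets (log2 fold change -1.37, SE 0.12, edgeR adjusted p = 4.15e-06). Mat1a, which makes S-adenosylmethionine, fell by 1.04 (SE 0.15, edgeR adjusted p = 0.000274) and Cth, which makes cysteine from cystathionine, by 1.21 (SE 0.15, edgeR adjusted p = 0.000121) on the log2 scale. Agpat2, an acyltransferase that forms phosphatidic acid, fell in the triglyceride synthesis list (log2 fold change -1.47, SE 0.13, edgeR adjusted p = 4.4e-06), where 3 of 16 fell and 0 rose.

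**Figure D4:**
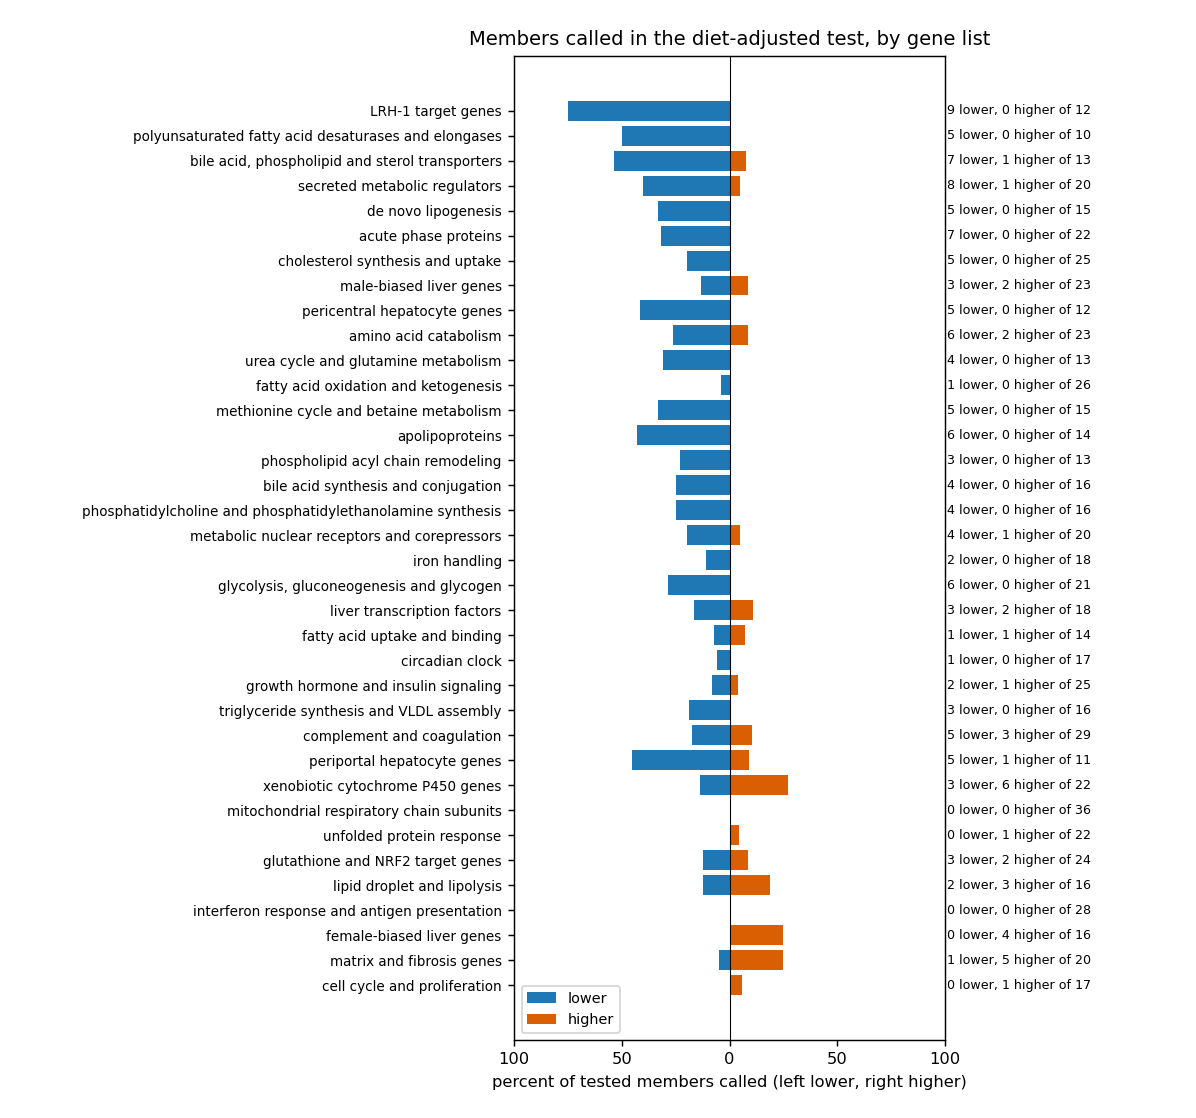
Share of tested members of each of 36 gene lists that fell (left) or rose (right) in the diet-adjusted test (x axis, percent), ordered by the median log2 fold change of the list, with counts at the right. LRH-1 targets (9 of 12 lower) have the lowest median and cell cycle genes (1 of 17 higher) the highest, and lists share members.

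Genes with hepatocyte zones as their known pattern also changed. Of 12 pericentral genes 5 fell and 0 rose (median -0.25). Oat, ornithine aminotransferase, stood at 849.8, 723 and 808 CPM in SD controls, 118, 118 and 88.5 CPM in SD knockouts, 621, 1297, 538 and 759 CPM in HFD controls and 164 and 124 CPM in HFD knockouts. The highest knockout was below the lowest control (log2 fold change -2.68, SE 0.20, edgeR adjusted p = 1.29e-06). Rhbg, an ammonium transporter, had 20 counts over SD controls and 3 over SD knockouts, a ratio of 6.70 (exact 95% interval 1.99 to 35.2), and on HFD 103 counts against 0, at least 15.6-fold lower. The transcription factor gene Tbx3 (log2 fold change -1.53, SE 0.14, edgeR adjusted p = 6.36e-06) and the glutamate transporter gene Slc1a2 (log2 fold change -0.82, SE 0.12, edgeR adjusted p = 0.000349) fell as well. Glul, glutamine synthetase of the cells next to the central vein, did not pass (-0.18, edgeR adjusted p = 0.312). Of 11 periportal genes 5 fell and 1 rose, the falls being 3 without any 1 of the SD knockouts or HFD knockout 2. Cyp2f2, a periportal cytochrome P450, was the rise (log2 fold change 0.94, SE 0.12, edgeR adjusted p = 0.000118).

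Paqr9, a membrane receptor family gene, was among the falls of largest size. It stood at 343, 359 and 227 CPM in SD controls, 28.7, 30.8 and 28.9 CPM in SD knockouts, 236, 357, 303 and 345 CPM in HFD controls and 28.6 and 27.8 CPM in HFD knockouts. All 5 knockouts lay close together and far below every control (log2 fold change -3.43, SE 0.14, edgeR adjusted p = 5.53e-10). Acpp, prostatic acid phosphatase, had 111 counts over SD controls and 1 over SD knockouts, a ratio of 112 (exact 95% interval 19.6 to 4447), and on HFD 5.08, 14.5, 21.5 and 17.2 CPM in controls against 0.834 and 0.223 CPM in knockouts (edgeR adjusted p = 1.77e-05). Tnfaip8l1 (log2 fold change -3.41, SE 0.28, edgeR adjusted p = 1.96e-06) and Rcan2, a calcineurin regulator (log2 fold change -3.07, SE 0.33, edgeR adjusted p = 3.3e-05), fell as well. Atf5, a stress-linked transcription factor gene, fell by 1.98 on the log2 scale (SE 0.26, edgeR adjusted p = 0.000159). Hamp2, a close paralog of the hepcidin gene whose reads cannot be assigned with certainty, had 18.7, 44.2 and 45.5 CPM in SD controls and 0.667, 0 and 1.39 CPM in SD knockouts. On HFD it had 119, 211, 88.8 and 98.0 CPM in controls and 20.4 and 56.7 CPM in knockouts. Knockouts were lower on both diets (log2 fold change -2.38, SE 0.45, edgeR adjusted p = 0.00317), with -3.68 when the diets were weighted equally, -3.40 with DESeq2 and -3.34 without HFD knockout 2.

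RNAs of several liver-secreted proteins were lower in knockouts. Of 20 secreted metabolic regulators 8 fell and 1 rose (median -0.46), against falls in 5.09% and rises in 2.89% of all genes tested, the background for every list here. Serpina6, corticosteroid-binding globulin, stood at 265, 398 and 312 CPM in SD controls, 86.3, 66.4 and 62.7 CPM in SD knockouts, 246, 401, 268 and 362 CPM in HFD controls and 162 and 142 CPM in HFD knockouts. All knockouts were below all controls (log2 fold change -1.61, SE 0.20, edgeR adjusted p = 0.0001). Hgfac, the activator of hepatocyte growth factor, fell by 1.83 on the log2 scale (SE 0.16, edgeR adjusted p = 2.8e-06). The rise was Tff3, a trefoil peptide (log2 fold change 3.79, SE 0.67, edgeR adjusted p = 0.00189), which was 2.61 and no longer passed without HFD knockout 1. Of 14 apolipoproteins 6 fell and 0 rose (median -0.17), among them Apof (-0.73) and Apom (-1.04). Of 22 acute phase genes 7 fell (4 without SD control 3) and 0 rose (median -0.32). The fibrinogen chain genes Fgb (-0.57, edgeR adjusted p = 0.0162) and Fgg (-0.51, edgeR adjusted p = 0.0179) were among them, Fgg losing the call without SD control 3. Of 29 complement and coagulation genes 5 fell and 3 rose, the rises being 1 without HFD knockout 1.

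Lipid droplet genes rose in part, from low levels. Of 16 listed 3 rose and 2 fell (median 0.09). Cidec, which fuses lipid droplets, stood at 1.95, 1.61 and 0.305 CPM in SD controls, 15.0, 10.4 and 9.40 CPM in SD knockouts, 7.53, 1.74, 1.83 and 1.95 CPM in HFD controls and 42.8 and 15.6 CPM in HFD knockouts. All knockouts were above all controls, and HFD control 1 was the highest control (log2 fold change 3.11, SE 0.40, edgeR adjusted p = 0.000121, and 3.80 without that library). With any 1 library left out, the log2 fold change ranged from 2.57 to 3.80. Plin4, a droplet coat protein, was higher in knockouts within each diet (log2 fold change 2.08, SE 0.35, edgeR adjusted p = 0.00113, and 2.53 without HFD control 1). Its range with any 1 library left out was 1.93 to 2.53. The third rise, of the lipase gene Pnpla2 (0.34), was lost without any 1 of 6 libraries, and the 2 falls, of Lipa and Hsd17b13, were both lost without any 1 of SD control 2, SD control 3, the SD knockouts or HFD knockout 2. Cfd, which encodes the complement factor adipsin and was chosen here after its value was seen, had the highest log2 fold change of all calls. It stood at 0, 0.402 and 0 CPM in SD controls, 11.7, 2.80 and 0 CPM in SD knockouts, 3.09, 0.621, 0.343 and 0.390 CPM in HFD controls and 69.1 and 36.8 CPM in HFD knockouts. Over SD libraries this was 1 count in controls and 42 in knockouts, a ratio of 41.8 (exact 95% interval 7.10 to 1689). SD knockout 3 overlapped with its controls at 0, while both HFD knockouts were above theirs (log2 fold change 5.39, SE 0.56, edgeR adjusted p = 1.93e-05, and 6.69 without HFD control 1). The log2 fold change of Cfd ranged from 4.92 to 6.69 with any 1 library left out. Cfd is a marker of fat cells, of whose 7 listed markers Adipoq, Lep and Retn had no count in any library. Of the 3 tested Cfd rose, Fabp4 did not pass and Car3, carbonic anhydrase 3, fell (log2 fold change -0.92, SE 0.22, edgeR adjusted p = 0.0161, not passing without SD knockout 2), with a median of 0.68. Car3 stood at 2756, 2239 and 1835 CPM in SD controls, 1129.9, 819.7 and 692 CPM in SD knockouts, 1562, 3114, 2617 and 3241 CPM in HFD controls and 2439.6 and 1411 CPM in HFD knockouts, and it makes up nearly all of the sum of the markers. That sum was 1836 to 2761 CPM in SD controls, 695 to 1147 CPM in SD knockouts, 1570 to 3247 CPM in the controls on HFD and 1453 to 2521 CPM in the knockouts on HFD.

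Corin, a membrane protease, was among the largest rises. It had 1 count over SD controls and 33 over SD knockouts, a ratio of 32.8 (exact 95% interval 5.50 to 1335). On HFD it stood at 1.81, 0.124, 0.343 and 0.130 CPM in controls and 12.4 and 7.25 CPM in knockouts. All knockouts were higher (log2 fold change 3.92, SE 0.49, edgeR adjusted p = 0.000103), and the log2 fold change was 5.32 without HFD control 1. With any 1 library left out, the log2 fold change ranged from 3.66 to 5.32. Cyp2c55, a cytochrome P450, was at 19.1, 24.9 and 20.4 CPM in SD controls, 109, 74.8 and 74.5 CPM in SD knockouts, 8.26, 5.59, 4.69 and 4.03 CPM in HFD controls and 86.7 and 38.4 CPM in HFD knockouts (log2 fold change 2.74, SE 0.27, edgeR adjusted p = 8.85e-06). Of 22 xenobiotic cytochrome P450 genes 6 rose and 3 fell, and of 16 female-biased liver genes 4 rose (2 without HFD knockout 1) and 0 fell (1 without HFD knockout 1 or HFD control 3). The rises of the female-biased list were 2 with DESeq2, 1 with the diets weighted equally and 0 with no diet term, and its falls 2 without a filter on low counts. One of the rises, Cyp2a4, had 3.35 (edgeR adjusted p = 0.014) with all libraries and only 0.64 without HFD knockout 1. Mup20 rose (log2 fold change 1.52, SE 0.31, edgeR adjusted p = 0.00556) and Mup3 fell (log2 fold change -1.40, SE 0.18, edgeR adjusted p = 0.000153), both male-biased urinary protein genes. Members of the Cyp2, Mup and Gsta families share near-identical copies, and their counts are uncertain.

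Some matrix genes rose, as did some markers of stellate cells, the main source of liver collagen. Of 20 matrix genes tested 5 rose and 1 fell (median 0.33). The rises were 3 without any 1 of the SD controls, HFD control 2 or HFD control 4, 2 without SD knockout 2 and 1 without HFD knockout 1. Col1a2 (log2 fold change 0.96, SE 0.24, edgeR adjusted p = 0.0214) and Col3a1 (log2 fold change 1.04, SE 0.29, edgeR adjusted p = 0.0348) encode fibrillar collagens, and both lost the call without HFD knockout 1 or SD knockout 2, Col3a1 also without any 1 of the SD controls, HFD control 2 or HFD control 4. Of 12 stellate cell markers 4 rose (Reln, Col1a2, Col3a1 and Colec11), Col1a2 and Col3a1 being in both lists. Without HFD knockout 1 the calls of Col1a2, Col3a1 and Colec11 were lost and that of Reln was not, and Colec11 lost its call without any 1 of 8 libraries. The markers summed to 407 to 502 CPM in SD controls, 569 to 649 CPM in SD knockouts, 375 to 531 CPM in the controls on HFD and 538 to 623 CPM in the knockouts on HFD, and their part in the matrix result was not tested. The fall was of Fn1, fibronectin, which hepatocytes make in quantity (log2 fold change -0.85, SE 0.09, edgeR adjusted p = 3e-05). Ccnd1, cyclin D1, was the rise among 17 cell cycle genes (log2 fold change 1.30, SE 0.24, edgeR adjusted p = 0.00243), where 3 rose without HFD control 1 and 2 without HFD knockout 2.

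Some lists held few or no calls. None of 36 subunits of the mitochondrial respiratory chain and none of 28 interferon response genes passed, against 7.98% of all genes tested, though without HFD control 1 the numbers were 1 and 2, and without HFD knockout 2 the respiratory chain had 1. Of 26 genes of fatty acid oxidation and ketogenesis 1 fell (median -0.19), and this became 4 without SD knockout 1 or HFD knockout 1, 3 without HFD control 1 or HFD control 3 and 0 without SD knockout 3.

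Of 25 genes of cholesterol synthesis and uptake 5 fell and 0 rose (median -0.26), against falls in 5.09% of all genes tested. Insig1, the sterol-sensing regulator, was among the 5 (log2 fold change -0.67, SE 0.11, edgeR adjusted p = 0.000989). With no diet term 2 genes of this list fell.

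The 8 genes of smallest p among those that passed over both diets and within neither had the same sign on each, and 3 of them are given here. Zcchc24 had -0.52 on SD and -0.51 on HFD, with adjusted p-values of 0.0551 and 0.0781 within the diets, and -0.52 (SE 0.10, edgeR adjusted p = 0.00384) over both. The chromobox gene Cbx6 had 1.71 and 1.30, with adjusted p-values of 0.0508 and 0.0561, and 1.44 (SE 0.27, edgeR adjusted p = 0.00288) over both. S1pr2, a sphingosine 1-phosphate receptor, had -2.31 and -1.80, with adjusted p-values of 0.0506 and 0.0732, and -1.99 (SE 0.38, edgeR adjusted p = 0.00353) over both. The pooled values share their libraries with both within-diet values and are no second source of evidence.

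Across processing, 510 of the 959 calls (53.2%) passed with each of the 12 libraries left out in turn, and 461 (117 rises and 344 falls) also passed under the other settings that used all libraries and kept the diet term.

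**Figure D5:**
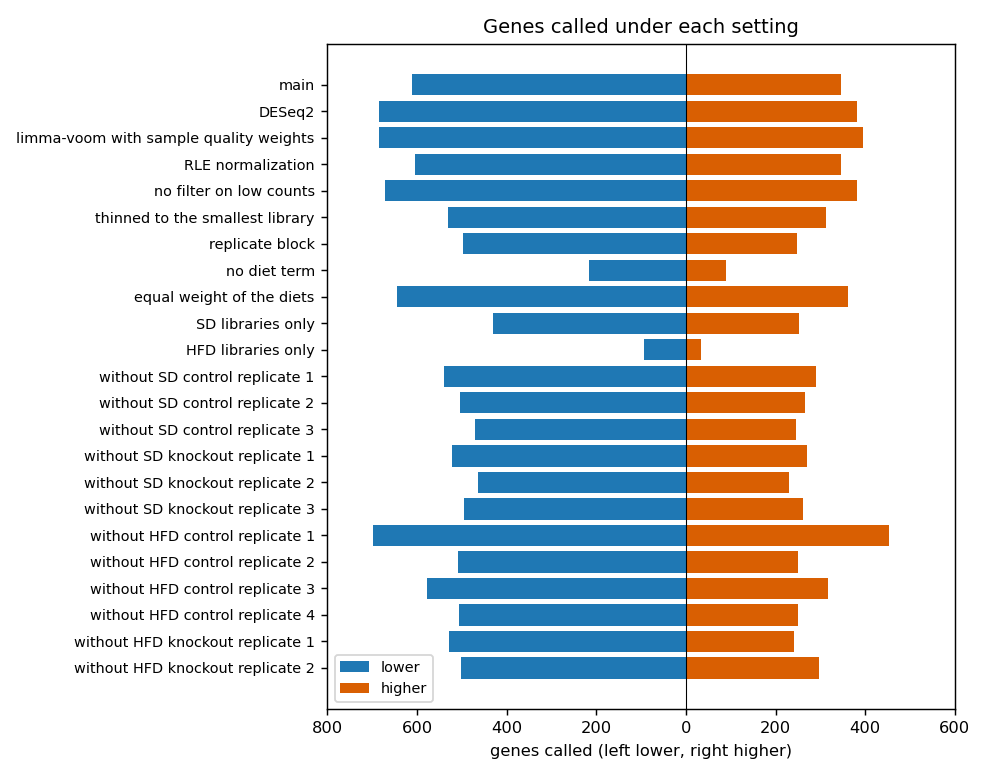
Number of genes that fell (left) or rose (right) in knockouts (x axis) under each setting of the analysis (y axis), the top bar being the reported one with 612 and 347. The fewest calls come from HFD libraries alone (127) and from the model with no diet term (305), and the most from leaving out HFD control 1 (1152). The number of genes tested differs between settings.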

How the data were processed

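Liver RNA was sequenced in 12 libraries. The deposited files hold whole-number counts by gene symbol, which the authors left without normalization and made with TopHat2 2.1.0 and HTSeq on build mm9 per the submitters' processing notes, which also name DESeq2 1.14.1. The library kit is a Nugen Ovation kit, per the labels' protocols. How strand and multiply mapped reads were handled is not given in the sources used here, and overlapping genes and close paralogs are uncertain as a result. Groups came from the sample titles.

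The test, in R 4.3.3, was the quasi-likelihood F test of edgeR 4.0.16 (limma 3.58.1), TMM normalization, filterByExpr with a minimum count of 10 over 4 groups, an additive model of diet and genotype and Benjamini-Hochberg adjustment over all 12015 genes tested. Tests were two-sided, with a threshold of 0.05. By library number alone, the SD contrast carries 52.9% of the weight in the common estimate. The common biological coefficient of variation was 15.7%. Within-diet effects and their difference came from a fit of 4 group means. SE values were derived from the test statistic. A count of 0 allows up to 3 counts over a group, or 0.360 CPM (SD controls), 0.358 (SD knockouts), 0.0845 (controls on HFD) and 0.186 (knockouts on HFD). Replicates correlated at 0.972 to 0.986.

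Members, 36 gene lists, 10 marker lists and tests were chosen with earlier results of these data known. The naming rule took Nr5a2, the 12 largest rises and falls that passed, reached 5 CPM and separated within each diet, up to 3 members of each list by p, and 8 genes that passed within neither diet. It gave 112 genes, and 34 were added after their values were seen. Some of these genes are not reported here. Alternatives were DESeq2 1.42.0, limma-voom with quality weights, RLE normalization, no filter, thinning to the smallest library, a replicate block, no diet term, equal weight of the diets, each diet alone, and each library left out. Where 1 HFD knockout is left out, the other is assumed to vary like the other groups. On simulated counts (11785 genes) for the diet-adjusted effect, 53.7% of 1.5-fold, 73.8% of 2-fold and 96.9% of 4-fold changes were recovered, and 3.95% of 152 calls were false. These counts were drawn from the model that the test assumes, with equal effects on both diets and no library standing apart. The shares may therefore not hold for the real libraries. Promoter windows came from RefSeq, whose build differs from mm9, so no other coordinates are given.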

Additional observations from a re-analysis of the deposited data

Results flagged for a closer look

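In the 4 HFD controls, the gap of 1 library to its nearest neighbour took a larger share of the range than Dixon's 95% critical value for 12 of the 146 genes examined, where chance flags about 1 in 20. HFD control 1 was the library in 11 of them, each time on the side of the knockouts except for Rhbg. Its value was 1.81 CPM for Corin (others 0.124 to 0.343), 7.53 for Cidec (1.74 to 1.95), 7.08 for Cyp2d12 (0.687 to 1.17), 7.17 for Ifi27l2b (0.801 to 1.17), 24.2 for Plin4 (7.10 to 8.19), 19.1 for Serpine2 (9.04 to 10.3), 3.09 for Cfd (0.343 to 0.621) and 106 for Reln (71.5 to 73.6). It was low for Nr1h4 (195 CPM, others 249 to 257) and Apon (155, others 267 to 273), and high for Rhbg (4.45, others 1.95 to 2.36), which fell in knockouts. The other library was HFD control 4, with 5.46 CPM of S1pr2 (others 2.86 to 2.99). Without HFD control 1 the log2 fold changes were 3.46 for Cyp2d12 and 3.56 for Ifi27l2b, against 2.57 and 2.40 with it. These were the highest values with any 1 library left out, the lowest being 2.20 and 2.18. The quality weight that limma gave HFD control 1 was 0.571, the lowest of all libraries, and the next was 0.621 for HFD knockout 1.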

How the results depend on the processing

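The total of 959 calls was 1066 with DESeq2, 1078 with limma-voom and quality weights, 952 with RLE normalization and 1005 with the diets weighted equally. It was 1052 without a filter on low counts (17849 genes tested) and 844 with libraries thinned to the smallest (10508 genes tested). With no diet term 305 genes passed (89 higher, 216 lower, 46 at least 2-fold higher), and with HFD libraries alone 127 passed (34 higher, 93 lower, 22 and 62 at least 2-fold). The cause of the first was not tested, and the second rests on fewer libraries. With 1 library left out, totals were 695 to 1152 and rises 231 to 453, the lowest of both without SD knockout 2 and the highest without HFD control 1. Genes that passed the difference between diets numbered 30 with DESeq2, 17 without a filter, 4 with the replicate block and 0 to 4 with 1 library left out (SD control 1 giving 4, and SD knockout 1 and HFD control 1 giving 1 each), against 0 with edgeR on all libraries. The causes were not tested. Of the 959 calls, none that a setting still tested changed sign, except 1 with no diet term. SD libraries alone left 77 of the calls untested, thinning 31 and the loss of 1 HFD library up to 21. The signs of those calls were not checked there. In the fit of 4 group means, 3 of the rises had opposite signs on the diets.

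Among named genes that had not passed, Usp18 was -0.11 on SD alone against 0.54, Apoa4 -0.35 with no diet term and -0.86 on HFD alone against 0.28, and Apoa1 0.019 with the replicate block and 0.030 on SD alone against -0.12. With the replicate number as a block 746 genes passed, and 7 of the 137 named calls were lost, Fga, Fgg and Rora among them. Same-numbered knockouts and controls correlated at 0.063, 0.069 and -0.021 on SD and at 0.136 and 0.021 on HFD. Not every library correlated best with its own number. With 2 HFD knockouts the deviations from the group mean mirror each other, so this check cannot decide whether the numbers pair the libraries. Calls of described genes that ended under other settings were Tff3, Cyp2a4, Col3a1 and Colec11 with quality weights, Cyp2a4 with equal weight of the diets, Elovl6 with DESeq2 and with thinning, and Pnpla2 without a filter and with thinning, and 50 named calls were lost with no diet term. Lists with 0 rises had 1 without SD knockout 3 (bile acid synthesis), SD control 2 (acyl chain remodeling), and SD control 1 or HFD knockout 2 (triglyceride synthesis). With no diet term the falls were 2 for polyunsaturated chain genes (3 with thinning), 1 for acute phase genes and 5 for secreted regulators, and 1 matrix gene rose. With the block, 5 secreted regulators and 3 female-biased genes fell. Depth limits most the genes near the limits of 3 counts, more so in the shallower SD libraries.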
